A study of Mus musculus with 24 samples.

Results

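The nuclear genes for subunits of respiratory complex I were followed across white fat of mice given an adeno-associated virus (AAV) for irisin or GFP. Members were the protein-coding rows of the deposited gene table with a symbol of the form Nduf followed by a, b, c, s or v and a number, 36 of 54532 genes (22046 of them protein coding). All 36 passed the filter on low values in every fit. Polyadenylated RNA was sequenced from subcutaneous inguinal fat (iWAT) and visceral epididymal fat (eWAT) of C57BL6 mice, as 24 libraries in 8 groups of 3. The groups were iWAT irisin HFD, iWAT GFP HFD, iWAT irisin chow, iWAT GFP chow, eWAT irisin HFD, eWAT GFP HFD, eWAT irisin chow and eWAT GFP chow, where irisin is AAV-irisin, GFP is the control AAV-GFP, HFD is a high-fat diet and chow the normal diet, each fed for 18 weeks. Every mouse, controls included, therefore carried an AAV. The labels give neither the age of the mice, nor the promoter or target tissue of the vectors, nor whether the 3 libraries within a group are different mice. The p-values below therefore rest on the spread between libraries, which may be technical.

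Complex I, the NADH dehydrogenase of the inner mitochondrial membrane, takes electrons from NADH, passes them along iron-sulfur clusters to ubiquinone and pumps protons out of the matrix. It is L-shaped, with a matrix arm that holds the redox centres and a membrane arm that holds the proton channels. The core of the membrane arm is encoded by the mitochondrial genome, whereas the core of the matrix arm and all accessory subunits are encoded in the nucleus and imported. In white adipocytes mitochondria supply energy and carbon for fat synthesis and fatty acid release, and their number and activity are known to fall in obesity. By their place in the mammalian complex the 36 members were grouped as 7 core subunits of the matrix arm, 9 accessory subunits of the matrix arm, 9 of the proximal membrane arm, 10 of the distal membrane arm, and Ndufa4, which present schemes count with complex IV.

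The recovered gene reads were 14.1 M to 19.7 M per library (median 16.4 M), of which the members took 0.215% to 0.417%. The depot labels matched Tbx15, a transcription factor of subcutaneous fat, at 2.88 to 14.2 FPKM in iWAT libraries and at most 0.0896 in eWAT libraries. Fndc5, the gene for the precursor of irisin, was at 0.392 to 3.91 FPKM in iWAT irisin HFD libraries, against 0.163 to 0.258 in iWAT GFP HFD libraries, and at 1.04 to 4.94 FPKM in eWAT irisin HFD libraries, against 1.44 to 3.22 in eWAT GFP HFD libraries. On chow it was at 0.621 to 2.93 FPKM in iWAT irisin libraries, against 0.157 to 0.735 in iWAT GFP libraries, and at 0.456 to 1.40 FPKM in eWAT irisin libraries, against 0.131 to 0.454 in eWAT GFP libraries. The vector groups overlapped in iWAT on chow and in eWAT on HFD. All 10 adipocyte markers were above 0 in every library. Some libraries carried transcripts of other tissues: the summed FPKM of 10 skeletal muscle markers was 90.3, 299 and 4388 in iWAT irisin chow libraries, against 26.5, 23.4 and 18.4 in iWAT GFP chow libraries. The summed B cell markers reached 1748 FPKM in iWAT GFP HFD 1 and 2476 in eWAT GFP chow 1, and the epididymis markers 2665 in eWAT GFP HFD 3. These 3 libraries and iWAT irisin chow 3 were left out together as an alternative, and the counts without them are given where they differ.

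The level of a member below is its FPKM, its reads scaled by the length of its gene model and by library size, which compares genes per length. Over the 24 libraries Ndufa2, an accessory subunit of the matrix arm with a thioredoxin-like fold, had the highest mean at 181 ± 43.6 FPKM (SD, n = 24 libraries). Ndufa1, a small subunit of the proximal membrane arm, followed at 143 ± 32.2 FPKM, Ndufb3 of the distal arm at 137 ± 34.6 and Ndufa4 at 126 ± 32.5. The ranges of these 4 genes over the libraries overlapped widely, but ranges ignore that the genes share libraries. Within libraries Ndufa2 lay above Ndufa1 except in iWAT irisin chow 1 (134.7 against 135.5 FPKM). Ndufa1, Ndufb3 and Ndufa4 changed order between libraries. These differences were not tested. Lowest was Ndufb2, a subunit of the distal arm, at 1.95 ± 0.402 FPKM, below Ndufb5 at 10.3 ± 1.90 and the core subunit Ndufs1 at 15.5 ± 4.0. The ranges of Ndufb2 (1.29 to 2.64 FPKM) and Ndufb5 (6.83 to 13.7 FPKM) did not overlap, whereas those of Ndufb5 and Ndufs1 (8.81 to 26.3 FPKM) did. Within every library Ndufs1 nonetheless lay above Ndufb5. The median of the 36 means was 54.4 FPKM.

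This order depends on the gene models, whose lengths in the deposited table ran from 419 bases (Ndufa1) to 8086 bases (Ndufs1). In GENCODE release M21 (build GRCm38) 32 of the 36 members had the same position, strand and summed exon length. Rescaled to the length of the principal transcript there, Ndufa4 had the highest mean level at 285 FPKM, before Ndufa7, an accessory subunit of the matrix arm, at 184 and Ndufa2 at 181. Ndufb7, a distal arm subunit whose gene model is 4522 bases against 623 for the principal transcript, moved from rank 33 at 16.2 FPKM to rank 11 at 117 FPKM. Ndufb2 stayed lowest of the 36 at 2.52 FPKM. Its principal transcript of 4371 bases is the longest of the 36, so this rank still depends on the gene model. Its gene also overlaps the protein-coding Gm42420 on the same strand. A set of 18 members shares bases with a neighbouring gene of the table, Ndufs3 with Kbtbd4 for one, and no source used here gives whether the libraries keep strand. Processed pseudogenes are known for several subunit genes, and how reads with more than 1 position were counted is not given either, so levels of such members are uncertain.

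The members moved together from library to library. The correlation of a member with the mean of the other members, on the log2(FPKM + 0.5) scale over the 24 libraries, had a median of 0.91, a description with no test since the libraries share depth, depot and diet. Ndufb8, a distal arm subunit, was highest at 0.98, and Ndufb2 lowest at 0.65. With each library's deviation from its own group mean in place of the level, the median was 0.92, from 0.60 for Ndufa12 to 0.99 for Ndufb8, so that libraries of 1 group also differed by a shift common to most members. The ratio of the highest to the lowest of the 8 group means was 1.75 at the median, 2.28 for Ndufb9 at the upper end and 1.38 for the core subunit Ndufs8 at the lower end. The SD within groups on the log2 scale was 0.26 at the median, lowest for Ndufs8 at 0.17 and highest for Ndufa12, a matrix arm subunit, at 0.55.

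**Figure D1:**
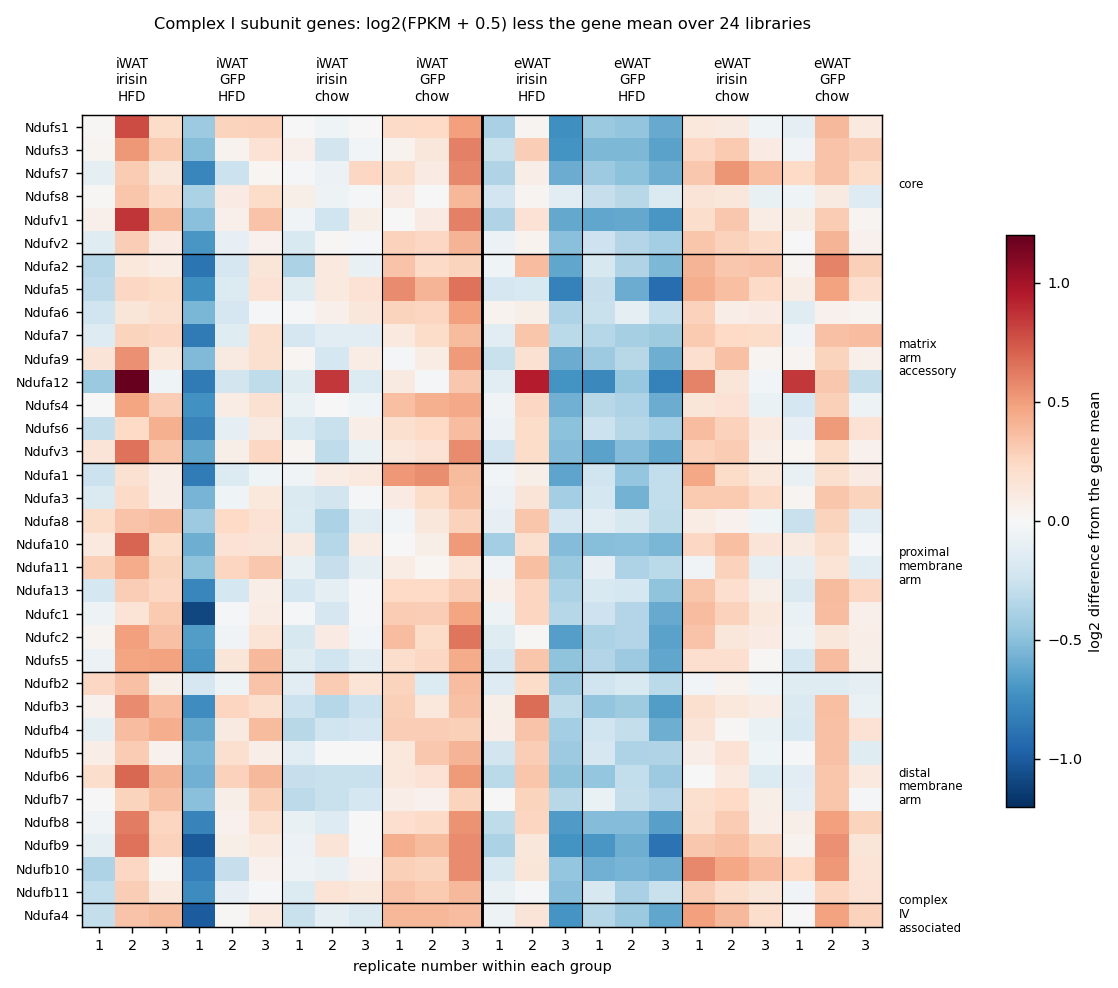
Difference of each member from its own mean over 24 libraries, as log2(FPKM + 0.5), with 1 row for each of 35 genes ordered by place in the complex and 1 column per library. Columns are mostly of 1 colour from top to bottom: iWAT GFP HFD 1 is low for nearly all members, iWAT GFP chow 3 is high, and the 3 eWAT GFP HFD libraries are low, while Ndufa12 stands apart in single libraries.

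The promoters were read for shared letters, as a description. RefSeq promoters of build GRCm38.p6, each running from 250 bases before to 50 bases after a gene start, matched 32 of the 36 members by symbol. On both strands 6 motifs were searched. AAGATGGCG, the core bound by the factor YY1, was in 5 of the 32 member promoters (15.6%) and in 335 of 16477 promoters of protein-coding genes (2.03%). The ETS motif CCGGAAGT was in 1 member promoter (3.12% against 5.54% of all), the NRF1 core GCGCATGCG in 2 (6.25% against 2.51%) and the ERR motif TCAAGGTCA in 0 (against 0.328%). GGGCGG, the SP1 box, was in 14 (43.8% against 48.2%) and TATAAA in 4 (12.5% against 12.8%). Median GC content was 58.7% in the member promoters and 57% in all.

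The 5 promoters with the YY1 letters are shown because the match lies at nearly the same place in each, between 23 and 44 bases after the gene start and in the direction of transcription. The letters contain ATG, the triplet of a translation start. Whether their shared place is that of the start of the coding sequence rather than of a promoter element was not tested. Capitals mark the 9 letters, which overlap no other motif searched. They belong to Ndufa9 (chr6:126849095-126849394, minus strand), Ndufc1 (chr3:51408906-51409205, minus strand), Ndufs4 (chr13:114388045-114388344, minus strand), Ndufs6 (chr13:73328433-73328732, minus strand) and Ndufs7 (chr10:80249199-80249498, plus strand).
Ndufa9: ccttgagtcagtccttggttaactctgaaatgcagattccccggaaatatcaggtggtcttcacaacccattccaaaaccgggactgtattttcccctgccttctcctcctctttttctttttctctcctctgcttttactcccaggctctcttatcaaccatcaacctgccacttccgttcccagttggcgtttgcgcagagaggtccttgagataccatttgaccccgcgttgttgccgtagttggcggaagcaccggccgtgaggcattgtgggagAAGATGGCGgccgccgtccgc
Ndufc1: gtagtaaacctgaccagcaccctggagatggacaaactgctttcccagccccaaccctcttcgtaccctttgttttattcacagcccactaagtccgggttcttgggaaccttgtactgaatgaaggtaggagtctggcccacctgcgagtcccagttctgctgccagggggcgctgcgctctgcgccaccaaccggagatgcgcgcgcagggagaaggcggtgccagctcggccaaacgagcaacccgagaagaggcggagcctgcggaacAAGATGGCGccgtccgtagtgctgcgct
Ndufs4: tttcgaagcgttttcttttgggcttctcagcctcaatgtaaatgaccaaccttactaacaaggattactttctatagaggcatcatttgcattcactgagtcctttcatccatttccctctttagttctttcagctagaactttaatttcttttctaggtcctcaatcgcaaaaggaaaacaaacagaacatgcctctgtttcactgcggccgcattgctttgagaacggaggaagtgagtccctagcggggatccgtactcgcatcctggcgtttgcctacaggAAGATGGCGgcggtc
Ndufs6: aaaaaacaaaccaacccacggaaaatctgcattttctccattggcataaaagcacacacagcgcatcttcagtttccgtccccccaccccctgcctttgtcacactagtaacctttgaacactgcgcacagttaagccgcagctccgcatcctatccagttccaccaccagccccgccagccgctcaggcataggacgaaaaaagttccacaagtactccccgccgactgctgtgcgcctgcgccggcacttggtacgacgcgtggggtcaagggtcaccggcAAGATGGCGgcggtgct
Ndufs7: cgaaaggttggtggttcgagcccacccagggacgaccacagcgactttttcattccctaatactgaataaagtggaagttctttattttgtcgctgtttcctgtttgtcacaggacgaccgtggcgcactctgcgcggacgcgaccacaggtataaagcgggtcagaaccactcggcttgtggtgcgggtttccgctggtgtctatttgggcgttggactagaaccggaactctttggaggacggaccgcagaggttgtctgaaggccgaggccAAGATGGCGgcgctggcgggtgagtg
Ndufs7 is the core subunit that holds the last iron-sulfur cluster before ubiquinone, Ndufa9 is an accessory subunit with a dehydrogenase-like fold near it, Ndufc1 lies in the proximal membrane arm, and Ndufs4 and Ndufs6 belong to the NADH end of the matrix arm. Of these 5 genes Ndufs7, Ndufa9 and Ndufc1 fell on HFD in eWAT of GFP mice by the test described next, and Ndufs4 and Ndufs6 were not called. Of all 36 members 19 fell there, and a link between the letters and diet was not tested. The gene start of RefSeq lies 328 bases from that of the deposited gene for Ndufs7, 164 bases for Ndufs4 and 8 to 60 bases for the other 3. A match to these letters does not show that YY1 is bound.

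In eWAT of mice with the control vector, complex I transcripts were lower on HFD than on chow. The summed FPKM of the 36 members was 1717, 1639.7 and 1532 in HFD libraries, against 2159, 2800.1 and 2386 in chow libraries, and the groups did not overlap. All 36 members were lower on HFD, as were 49.5% of the 16274 genes tested, with a median log2 fold change of -0.55 against 0.00 for all genes. By limma's moderated test with Benjamini and Hochberg adjustment over all genes, at an adjusted p under 0.05, 19 of the 36 members fell and 0 rose, against 11.8% of all genes that fell. In 32 members every HFD library lay below every chow library, against 21.1% of all genes. In bulk tissue fewer cells of a type and less RNA per cell cannot be told apart.

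Of the 7 core subunits 6 fell, with a median log2 fold change of -0.77 over the 7. Ndufs7 was at 43.8, 42.0 and 39.3 FPKM in GFP HFD libraries, against 70.0, 75.5 and 69.1 FPKM in GFP chow libraries. It fell by 0.77 ± 0.15 (SE) on the log2 scale (adjusted p = 0.00471). Ndufv1, which holds the flavin that oxidises NADH, was at 42.1, 42.4 and 39.9 FPKM on HFD, against 68.4, 80.8 and 66.9 FPKM on chow, and fell by 0.78 ± 0.17 (adjusted p = 0.00834). In both genes the HFD libraries lay close together and below the lowest chow library.

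Ndufs3, a scaffold of the ubiquinone module, was at 31.4, 31.5 and 29.4 FPKM in GFP HFD libraries, against 44.7, 58.6 and 56.6 FPKM in GFP chow libraries, and fell by 0.77 ± 0.21 (adjusted p = 0.0211). Ndufs1, the largest subunit and carrier of several iron-sulfur clusters, was at 10.9, 10.7 and 9.70 FPKM on HFD, against 13.9, 19.9 and 16.4 FPKM on chow (fall of 0.64 ± 0.18, adjusted p = 0.0253). Ndufv2, the partner of Ndufv1, was at 37.5, 34.9 and 33.6 FPKM on HFD, against 44.8, 59.2 and 46.2 FPKM on chow (fall of 0.49 ± 0.15, adjusted p = 0.0349). All 3 were lower in every HFD library than in any chow library. Ndufs8, which carries iron-sulfur clusters next to Ndufs7, was the core subunit not called: 50.5, 48.4 and 54.1 FPKM on HFD, against 58.9, 66.1 and 54.8 FPKM on chow, with a log2 fold change of -0.23 ± 0.11 (adjusted p = 0.164). Its groups did not overlap either, but lay within 1 FPKM of each other at their nearest libraries.

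**Figure D2:**
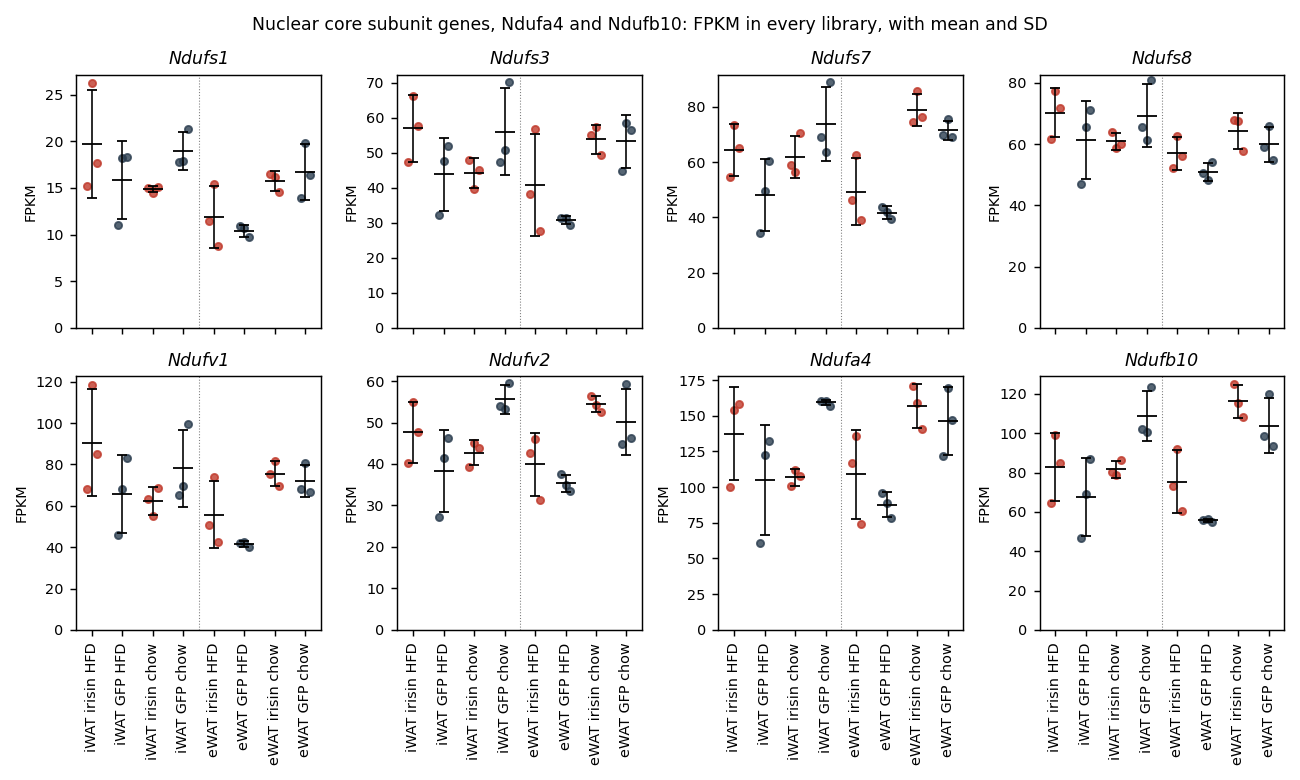
FPKM of 6 nuclear core subunits, of Ndufa4 and of Ndufb10 in every library (points, red irisin, dark GFP), with the mean and SD of each group of 3 and a linear axis from 0. In eWAT the GFP HFD points lie tightly below the chow points in each of the 8 panels, whereas the irisin HFD points spread widely, for Ndufs3 from 27.8 to 56.7 FPKM.

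Among accessory subunits of the matrix arm 5 of 9 fell (median log2 -0.61). Ndufv3, a small subunit beside Ndufv1 and Ndufv2, was at 25.9, 28.3 and 26.3 FPKM in GFP HFD libraries, against 41.5, 47.5 and 42.2 FPKM in GFP chow libraries, and fell by 0.69 ± 0.16 (adjusted p = 0.0103). Ndufa5 fell by 0.85 ± 0.20, and Ndufa7, Ndufa9 and Ndufa2 were called as well with log2 fold changes of -0.61, -0.57 and -0.67. Ndufa12 had the lowest log2 fold change of the 36 at -0.97 ± 0.39 but was not called (adjusted p = 0.0859), with 8.81, 11.1 and 8.59 FPKM on HFD, against 28.1, 19.4 and 12.6 FPKM on chow. Its chow libraries spread widely, although none reached down to the HFD libraries.

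In the membrane arm 3 of the 10 distal subunits fell (median log2 -0.49) and 4 of the 9 proximal ones (median log2 -0.51). Ndufb10, a distal subunit with disulfide bonds on the intermembrane side, had the smallest adjusted p of the 36: 55.8, 56.5 and 54.9 FPKM in GFP HFD libraries, against 98.5, 119.7 and 93.3 FPKM in GFP chow libraries, a fall of 0.88 ± 0.15 (adjusted p = 0.00268). Ndufb9, a distal subunit of the LYR protein family, was at 36.1, 39.2 and 31.7 FPKM on HFD, against 60.7, 86.5 and 65.4 FPKM on chow, and fell by 0.97 ± 0.20 (adjusted p = 0.00613). Ndufb8 was the other distal subunit called, at a log2 fold change of -0.84. The proximal subunits called were Ndufa10, of the nucleoside kinase family, at -0.62, Ndufa3 at -0.57, Ndufc1 at -0.52 and Ndufc2 at -0.51. Ndufa4 was at 95.7, 89.0 and 78.6 FPKM on HFD, against 122, 169 and 147 FPKM on chow, and fell by 0.72 ± 0.21 (adjusted p = 0.0259). The smallest difference was that of Ndufb2, 1.55, 1.63 and 1.44 FPKM on HFD against 1.69, 1.69 and 1.74 FPKM on chow, at -0.11 ± 0.16 (adjusted p = 0.642).

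The number of called members depended on the libraries, although the direction of the median did not. It was 8 without GFP chow 2, 9 without GFP chow 3 or any 1 of the 3 GFP HFD libraries, and 9 without the 4 libraries rich in other tissues. The median log2 fold change in these fits ran from -0.60 to -0.43. With weights for library quality the count was 31, when 16.7% of all genes were called lower. For the other refits, here and below, the share of all genes called is not given. A change particular to the members cannot be told apart there from a change over all genes. Of the 18 members that overlap another gene 11 were called, and of the 18 that overlap none 8, with medians of -0.55 in both sets.

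Adipocyte and macrophage transcripts moved with the same contrast. Of the 10 adipocyte markers 7 fell on HFD in eWAT of GFP mice (median log2 -0.97), and all 10 macrophage markers rose (median log2 1.56). Of all 16274 genes 11.8% were called lower and 4310 were called in either direction. The summed macrophage markers were 4706, 3444 and 3606 FPKM in GFP HFD libraries, against 1304, 929 and 1251 FPKM in GFP chow libraries. Per 100 FPKM of adipocyte markers the members summed to 34.3, 30.5 and 33.0 FPKM in GFP HFD libraries, against 26.2, 25.4 and 23.1 FPKM in GFP chow libraries. Relative to these markers complex I transcripts were thus higher on HFD, while relative to all reads they were lower. The part of cell composition in the difference was not tested.

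In eWAT of irisin mice the diet effect had the same direction with fewer calls. The summed FPKM of the members was 1991, 2571 and 1538 in irisin HFD libraries, against 2699, 2633 and 2419 in irisin chow libraries. Of the 36 members 35 were lower on HFD, against 49.8% of all genes, with a median log2 fold change of -0.40, and 4 fell by limma's adjusted p, against 7.93% of all genes. In 12 members the groups did not overlap, against 17.6% of all genes. Ndufs7 was at 46.2, 62.8 and 39.1 FPKM in irisin HFD libraries, against 74.5, 85.7 and 76.5 FPKM in irisin chow libraries, and fell by 0.70 ± 0.15 (adjusted p = 0.0131). Ndufb10 was at 73.4, 92.2 and 60.3 FPKM on HFD, against 125, 115 and 108 FPKM on chow, and fell by 0.64 ± 0.15 (adjusted p = 0.0182). Ndufa5 fell by 0.74 ± 0.20 (adjusted p = 0.0299), and all 4 were also called in GFP mice. Voom called 12.

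The library irisin HFD 2 stood apart within its group, with 2571 FPKM of summed members, 12454 FPKM of adipocyte markers and 1067 FPKM of macrophage markers, whereas irisin HFD 1 and 3 held 6593 and 5258 FPKM of adipocyte markers and 3059 and 3309 FPKM of macrophage markers. Without it 20 members were called lower, with a median of -0.55, and without irisin chow 2 the count was 0. The share of all genes called is not given for either refit. Without irisin HFD 3 the median was -0.20, with 8 members above 0. Per 100 FPKM of adipocyte markers the members summed to 30.2, 20.6 and 29.3 FPKM in irisin HFD libraries, against 26.2, 24.3 and 24.5 FPKM in irisin chow libraries, and these groups overlapped. The count was also 0 with the 2 groups fitted on their own, 1 without irisin HFD 1 and 2 without irisin HFD 3, irisin chow 1 or irisin chow 3. Ndufb3, a distal subunit, had the highest value, at 0.01 ± 0.22, with 139, 212 and 107 FPKM on HFD against 152, 144 and 141 FPKM on chow. The vector by diet interaction, the test of whether the diet effect differed between irisin and GFP mice, called 0 members by limma and 0 by voom, with 0 at an unadjusted p under 0.05. Over all genes it called 0.00614%. Its median was 0.20, and 33 of 36 members were above 0, against 47.6% of all genes. This rested on single libraries: without irisin HFD 2 the median was 0.011, with 20 of 36 above 0, without GFP chow 2 it was 0.080 and without GFP HFD 3 it was 0.13, while without irisin HFD 3 it was 0.36. The smallest p was that of Ndufb3 at 0.57 ± 0.31 (adjusted p = 0.908), and the values ran from -0.07 ± 0.26 for Ndufa1 to 0.77 ± 0.55 for Ndufa12.

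**Figure D3:**
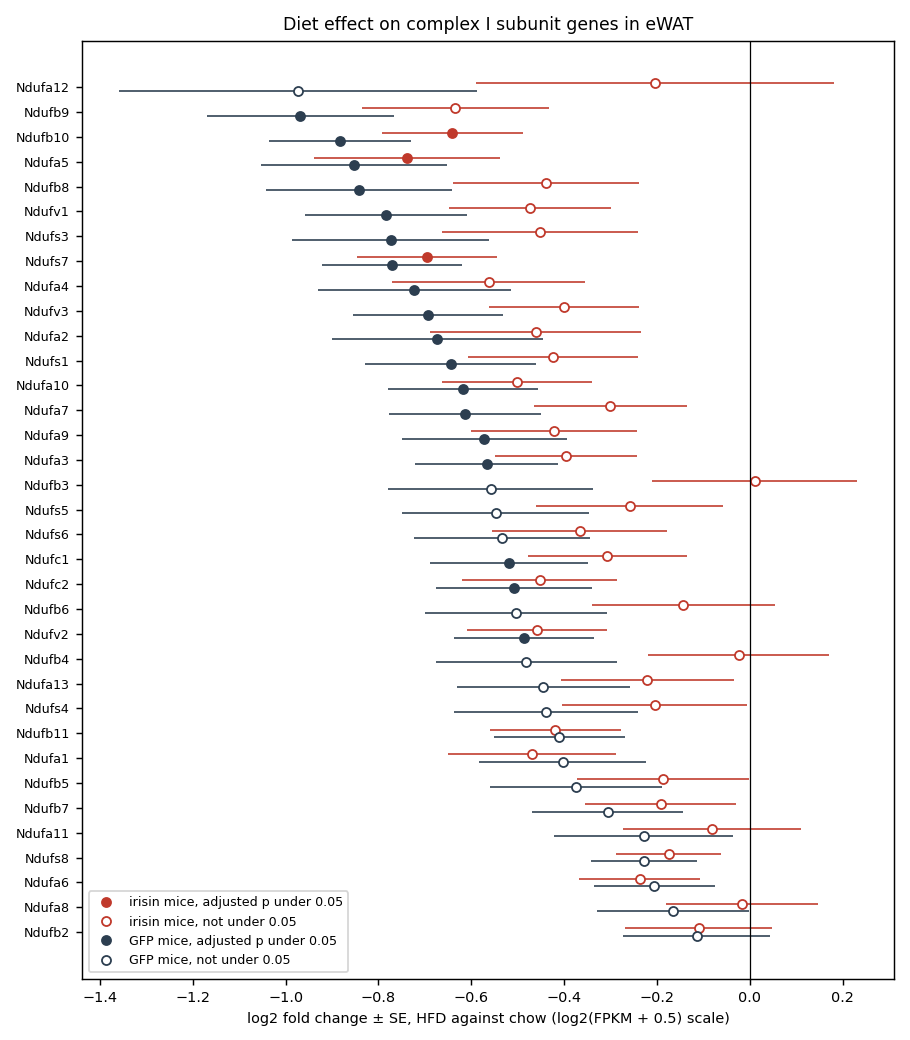
Log2 fold change of 35 members on HFD against chow in eWAT, with its SE, ordered by the value in GFP mice; red circles are irisin mice, dark circles GFP mice, and filled circles have an adjusted p under 0.05. All dark circles lie left of 0, 18 of them filled, and the red circles lie to their right for most members, 3 of them filled.

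In iWAT the diet effect of GFP mice also pointed down, without a called member. The summed FPKM was 1338, 2189 and 2436 in GFP HFD libraries, against 2617, 2592 and 2978 in GFP chow libraries. All 36 members were lower on HFD, against 50.4% of all genes, with a median log2 fold change of -0.51. None was called by limma (0 of 36, against 0.924% of 16125 genes that fell), 17 had an unadjusted p under 0.05, against 19.1% of all genes in either direction, and voom gave 1. In 18 members every HFD library lay below every chow library, against 11.3% of all genes. Ndufa1 came nearest, at 77.7, 124 and 134 FPKM in GFP HFD libraries, against 200.2, 205 and 181 FPKM in GFP chow libraries, with -0.83 ± 0.20 (adjusted p = 0.0600). Ndufa6, a matrix arm subunit of the LYR family, was at 26.1, 33.4 and 37.7 FPKM on HFD, against 46.5, 46.1 and 54.4 FPKM on chow, with -0.60 ± 0.16 (adjusted p = 0.0824). At the other end Ndufa11, a proximal subunit, was at -0.06 ± 0.19. The B-cell-rich library GFP HFD 1 was the lowest of the 24 for the summed members, and without it the median moved to -0.20, with 0 members called, while without GFP HFD 3 it was -0.69, with 2 called. Per 100 FPKM of adipocyte markers the members summed to 24.3, 20.9 and 21.6 FPKM in GFP HFD libraries, against 31.2, 28.2 and 24.95 FPKM in GFP chow libraries. These groups did not overlap, and the direction was that relative to all reads. The summed macrophage markers overlapped, at 576, 783 and 416 FPKM on HFD against 1391, 1339 and 208 FPKM on chow. The part of cell composition in the difference was not tested.

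On HFD against chow in iWAT of irisin mice the members pointed the other way. Their summed FPKM was 2059.9, 2925 and 2599.8 in irisin HFD libraries, against 1997, 2072 and 2169 in irisin chow libraries, and 32 of 36 were higher on HFD, against 48.7% of all genes, with a median log2 fold change of 0.26. By limma 0 members rose, against 4.82% of all genes, while 5 had an unadjusted p under 0.05, against 27.5% of all genes in either direction, and voom gave 0. In 13 members the groups did not overlap, against 17.8% of all genes. Ndufb6, a distal subunit, was at 93.5, 131 and 107 FPKM in irisin HFD libraries, against 66.4, 67.0 and 66.9 FPKM in irisin chow libraries, with 0.71 ± 0.24 (adjusted p = 0.0847). Ndufa8, a proximal subunit of the intermembrane side, was at 118, 129 and 131 FPKM on HFD, against 90.1, 77.7 and 92.9 FPKM on chow, with 0.54 ± 0.18 (adjusted p = 0.0898). The chow libraries of both genes lay close together below all HFD libraries, and Ndufa1 had the lowest value of the 36 at -0.05 ± 0.20. The 3 chow libraries of this group hold the muscle transcripts given above, and the summed macrophage markers were 653, 232 and 418 FPKM in irisin HFD libraries, against 1209, 1723 and 1189 FPKM in irisin chow libraries. The summed adipocyte markers were 9897, 13592 and 12253 FPKM in irisin HFD libraries, against 7829, 6510.1 and 7715 FPKM in irisin chow libraries. Per 100 FPKM of these markers the members summed to 20.8, 21.5 and 21.2 FPKM in irisin HFD libraries, against 25.5, 31.8 and 28.1 FPKM in irisin chow libraries. Relative to adipocyte markers complex I transcripts were thus lower on HFD, the opposite of their direction relative to all reads. The part of cell composition in the difference was not tested. Without irisin chow 3 and the other libraries rich in other tissues the median was 0.29, with 3 members called, and without irisin HFD 1 it was 0.42, with 0 called. Other refits lowered it. The median was 0.18, with 27 of 36 above 0, without irisin HFD 2, and 0.23, with 31 above 0, without irisin HFD 3. Without irisin chow 1 it was 0.25, with 28 above 0, and each of these refits called 0.

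The opposite directions of the diet difference in iWAT were compared by the vector by diet interaction. All 36 members had a larger value in irisin than in GFP mice, against 48.8% of all genes, with a median difference of 0.72 log2 units. By limma 0 members and 0.0% of all genes were called, while 24 members had an unadjusted p under 0.05, against 6.18% of all genes in either direction, and voom gave 0. The members with the smallest p were Ndufc2, a proximal subunit, at 0.92 ± 0.31 and Ndufs4 at 0.87 ± 0.30 (adjusted p = 0.688 for both genes). Ndufa4 had the largest difference at 1.01 ± 0.38 and Ndufb2 the smallest at 0.24 ± 0.29. The median ran from 0.49 to 0.91 when each of the 12 libraries was left out in turn. In the same interaction the 10 adipocyte markers had a median of 0.77 and the 10 macrophage markers -1.24. The 8 skeletal muscle markers tested had a median of -5.89, and 0 markers of these lists were called. The part of cell composition in the difference was not tested.

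Irisin against GFP was compared on each diet, the question of the study's design. In iWAT on HFD all 36 members were higher in irisin mice, against 50.8% of all genes, with a median log2 fold change of 0.37. None was called (0 by limma, with 0.0% of all genes, 0 by voom and 0 at an unadjusted p under 0.05), and every irisin library lay above every GFP library in 0 members, against 3.21% of all genes. Ndufc2 was at 86.6, 119 and 108 FPKM in irisin libraries, against 53.3, 82.1 and 95.1 FPKM in GFP libraries, with 0.47 ± 0.22 (adjusted p = 0.946), and Ndufv3 at 0.48 ± 0.23 (adjusted p = 0.946). The difference was that of Ndufa12 at its largest, 0.71 ± 0.40, and of Ndufb2 at its smallest, 0.20 ± 0.21. The log2(FPKM + 0.5) scale understates changes of low genes such as Ndufb2, so that its rank here may depend on the added 0.5. The low GFP library is GFP HFD 1, whose adipocyte markers summed to 5495 FPKM, against 10478 and 11258 FPKM in GFP HFD 2 and 3. Without it the median was 0.11. The members' sum per 100 FPKM of adipocyte markers was 20.8, 21.5 and 21.2 FPKM in irisin HFD libraries, against 24.3, 20.9 and 21.6 FPKM in GFP HFD libraries.

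In iWAT on chow 35 of 36 members were lower in irisin mice, against 51.0% of all genes, with a median log2 fold change of -0.38. Calls were 0 by limma, with 0.0% of all genes, and 0 by voom, and 3 members had an unadjusted p under 0.05, against 4.27% of all genes in either direction. In 27 members every irisin library lay below every GFP library, against 8.12% of all genes. Ndufb4, a distal subunit, was at 22.5, 24 and 24.6 FPKM in irisin chow libraries, against 34.9, 35 and 34.7 FPKM in GFP chow libraries, with -0.55 ± 0.23 (adjusted p = 0.919). Ndufa4 had the lowest value at -0.58 ± 0.27, with 101, 112 and 108 FPKM in irisin libraries, against 161, 160.3 and 157 FPKM in GFP libraries. Both genes had tight and separate groups. Ndufb6 was at -0.54, and Ndufa12 was the member above 0 at 0.04. The summed adipocyte markers were 7829, 6510.1 and 7715 FPKM in irisin chow libraries, against 8390.5, 9185 and 11934 FPKM in GFP chow libraries, and the muscle markers differed as given above. The sum of the members per 100 FPKM of adipocyte markers was 25.5, 31.8 and 28.1 FPKM in irisin chow libraries, against 31.2, 28.2 and 24.95 FPKM in GFP chow libraries, and these groups overlapped. The part of other tissue in the difference was not tested.

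In eWAT on HFD all 36 members were higher in irisin mice, against 48.9% of all genes, with a median log2 fold change of 0.25, and limma called 0 of them, as it did 0.0% of all genes (3 at an unadjusted p under 0.05, against 9.28% of all genes in either direction, and 0 by voom). In 4 members, Ndufa7, Ndufb3, Ndufb10 and Ndufv1, every irisin library lay above every GFP library, against 6.66% of all genes. Ndufb3 was at 139, 212 and 107 FPKM in irisin HFD libraries, against 95.4, 98.7 and 83.2 FPKM in GFP HFD libraries, with 0.67 ± 0.22 (adjusted p = 0.533), and Ndufb10 at 0.41 ± 0.15 (adjusted p = 0.533). Ndufa12 had the largest value at 0.71 and Ndufb11, a distal subunit, the smallest at 0.08. The high irisin library of Ndufb3 is irisin HFD 2, the one rich in adipocyte markers, and without it the median of the 36 was 0.08, while without irisin HFD 3 it was 0.42. Per 100 FPKM of adipocyte markers the members summed to 30.2, 20.6 and 29.3 FPKM in irisin HFD libraries, against 34.3, 30.5 and 33.0 FPKM in GFP HFD libraries, so that relative to these markers every irisin library lay below every GFP library. In eWAT on chow 31 of 36 members were higher in irisin mice, against 51.0% of all genes, with a median of 0.08. Without GFP chow 1, the library rich in B-cell markers, 18 of 36 were higher and the median was 5.6e-05, and without GFP chow 2 it was 0.18. Both limma and voom called 0 of them, limma called 0.0% of all genes, and 0 members had an unadjusted p under 0.05. The groups lay apart in 2 members, Ndufa6 and Ndufb2, against 5.63% of all genes. The values ran from -0.12 ± 0.20 for Ndufb6 to 0.20 ± 0.18 for Ndufa1, and the smallest p was that of Ndufa6 at 0.17 ± 0.13 (adjusted p = 0.946).

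**Figure D4:**
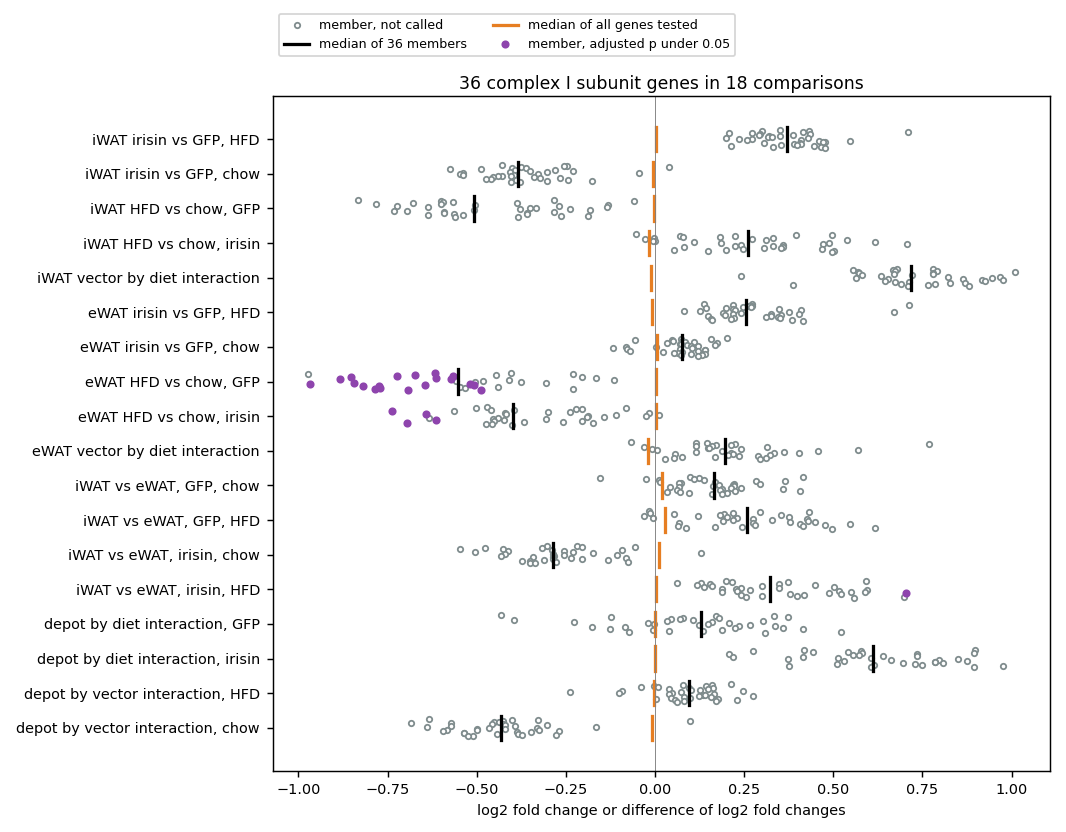
Log2 fold changes of the 36 members in each of 18 comparisons, or differences of log2 fold changes for interactions (points, purple where the adjusted p was under 0.05), with the median of the members in black and of all genes tested in orange. The orange bars lie near 0 throughout, while the members lie mostly to one side of it in most comparisons, from a median of -0.55 for HFD in eWAT of GFP mice to 0.72 for the vector by diet interaction in iWAT, and the purple points stand in 3 comparisons, 19, 4 and 1.

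Between the depots 1 member passed the test, Ndufs1 in irisin mice on HFD. In GFP mice 34 of 36 members were higher in iWAT than in eWAT on chow (median log2 0.17) and 32 on HFD (median 0.26), against 52.7% and 52.5% of the 17687 genes tested. Limma called 0 members on either diet, against 1.5% and 5.56% of all genes called higher (2 and 5 members at an unadjusted p under 0.05, against 15.02% and 29.7% of all genes in either direction, and voom 0 and 2). The groups lay apart in 5 members on chow, against 8.12% of all genes, and in 3 on HFD, against 15.8%. Ndufv1 was nearest on HFD, at 45.9, 68.2 and 83.1 FPKM in iWAT, against 42.1, 42.4 and 39.9 FPKM in eWAT, with 0.62 ± 0.23 (adjusted p = 0.0749). Ndufs1 was at 0.55 ± 0.21 (adjusted p = 0.0858) and Ndufa6 at -0.03, the lowest of the 36. On chow the smallest p was that of Ndufa6 at 0.36 ± 0.15 (adjusted p = 0.210), and the values ran from -0.15 for Ndufa12 to 0.41 for Ndufa1. Without iWAT GFP HFD 1 the comparison on HFD called 16 members higher, with a median of 0.49, and without the 4 libraries rich in other tissues 3. Without iWAT GFP HFD 3 its median was 0.12, with 25 of 36 above 0 and 0 called. On chow the median was 0.083 without eWAT GFP chow 1, 0.088 (24 of 36 above 0) without iWAT GFP chow 3 and 0.26 without eWAT GFP chow 2, with 0 called in each. On HFD 5 of 10 adipocyte markers were called higher in iWAT and 9 of 10 macrophage markers lower, in GFP mice. In irisin mice it was 5 and 8. Of all 17687 genes 2695 were called in either direction on HFD in GFP mice and 1819 in irisin mice. Per 100 FPKM of adipocyte markers the members of GFP mice on HFD summed to 24.3, 20.9 and 21.6 FPKM in iWAT, against 34.3, 30.5 and 33.0 FPKM in eWAT, the opposite direction. The part of these cells in the depot differences was not tested.

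In irisin mice on chow 35 of 36 members were lower in iWAT than in eWAT, against 47.8% of all genes, with a median log2 fold change of -0.29, and limma called 0 of them, against 2.4% of all genes called lower (4 at an unadjusted p under 0.05, against 15.2% of all genes in either direction, and voom 0). In 24 members every iWAT library lay below every eWAT library, against 15.6% of all genes. Ndufb10 was at 80.0, 78.5 and 86.5 FPKM in iWAT, against 125, 115 and 108 FPKM in eWAT, with -0.50 ± 0.19 (adjusted p = 0.184), Ndufa3 was at -0.43, Ndufa4 had the lowest value at -0.55 ± 0.25 and Ndufb2 the highest at 0.13. The summed adipocyte markers were 7829, 6510.1 and 7715 FPKM in these iWAT libraries, which hold the muscle transcripts given above. In eWAT they were 10305, 10828 and 9870 FPKM. Per 100 FPKM of these markers the members summed to 25.5, 31.8 and 28.1 FPKM in iWAT, against 26.2, 24.3 and 24.5 FPKM in eWAT. These groups overlapped, and the fall was not seen on this scale. The part of cell composition in the difference was not tested. On HFD all 36 were higher in iWAT, against 50.9% of all genes, with a median of 0.32. Only Ndufs1 was called there, against 3.54% of all genes called higher, at 15.2, 26.3 and 17.7 FPKM in iWAT and 11.4, 15.4 and 8.81 FPKM in eWAT, with 0.70 ± 0.21 (adjusted p = 0.0395), and its groups overlapped. In 1 member, Ndufc2, every iWAT library lay above every eWAT library, against 10.3% of all genes. Ndufa2 was nearest 0 at 0.06. That count was 13 without eWAT irisin HFD 2, 2 without iWAT irisin HFD 1, and 0 without any other library of the 2 groups or with these groups fitted on their own. Without the 4 libraries rich in other tissues it was 3. Voom called 2, and 12 members had an unadjusted p under 0.05, against 25.1% of all genes in either direction. The median was 0.52 without eWAT irisin HFD 2 and 0.16, with 29 of 36 above 0, without eWAT irisin HFD 3.

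The interaction of depot and diet in irisin mice, which asks whether HFD moved the members differently in iWAT and in eWAT, was above 0 for all 36 (50.1% of all genes), with a median of 0.61. By limma 0 members were called, against 1.02% of all genes, while 21 had an unadjusted p under 0.05, against 21.3% of all genes in either direction, and voom gave 0. Ndufv3 was at 0.89 ± 0.29 (adjusted p = 0.0806) and Ndufv1 at 0.98 ± 0.32 (adjusted p = 0.0908), and without eWAT irisin HFD 2 it called 13 members, without iWAT irisin HFD 1 it called 1. The 10 adipocyte markers had a median of 1.09 in this interaction and the 10 macrophage markers -2.94. The part of cell composition in it was not tested. In GFP mice the same interaction had a median of 0.13, with 25 of 36 above 0 (49.8% of all genes) and 0 called by limma and by voom, against 1.33% of all genes called higher (0 at an unadjusted p under 0.05). Its sign and size turned on single libraries, from a median of -0.052, with 14 of 36 above 0, without iWAT GFP HFD 3 to 0.39, with 34 above 0, without iWAT GFP HFD 1. Without eWAT GFP chow 2 it was 0.037, without iWAT GFP HFD 2 it was 0.053, without eWAT GFP HFD 3 it was 0.086, and without eWAT GFP chow 1 it was 0.20. The interactions of depot and vector were above 0 for 31 of 36 members on HFD (49.7% of all genes) and below 0 for 35 on chow (51.2% of all genes). They called 0 members by limma and by voom and 0.0% of all genes. Their medians were 0.10 on HFD (0 members at an unadjusted p under 0.05) and -0.43 on chow (5 members, against 3.15% of all genes in either direction), where Ndufa4 was lowest at -0.69 ± 0.35 (adjusted p = 1.0). On HFD the direction turned on single libraries: the median was -0.16, with 4 of 36 above 0, without iWAT GFP HFD 1, -0.083, with 8 above 0, without eWAT irisin HFD 3, and -0.012, with 15 above 0, without iWAT irisin HFD 2. Without iWAT irisin HFD 1, iWAT GFP HFD 2 or 3, eWAT irisin HFD 2 or eWAT GFP HFD 3 it lay between 0.16 and 0.28.

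Other genes of the pathway were described by group. Assembly factors, which build complex I without staying in it, numbered 17 in the table of 18 listed. In eWAT of GFP mice all 17 were lower on HFD (median log2 -0.46), with 5 called, against 11.8% of all genes called lower. Ecsit, a part of the complex that assembles the membrane arm, was at 6.52 ± 0.624 FPKM on HFD and 11.2 ± 2.16 FPKM on chow (SD, n = 3 each), and fell by 0.72 ± 0.16 (limma's adjusted p = 0.00939). Tmem186 of the same assembly complex fell by 0.66 ± 0.18, Foxred1, an assembly flavoprotein, by 0.64 ± 0.15, Ndufaf7, an assembly factor of the methyltransferase family, by 0.53 ± 0.14 and Ndufaf3 by 0.50 ± 0.16. In irisin mice 13 of 17 were lower (median -0.20) with 0 called by limma. In iWAT of irisin mice 1 of the 17 factors was called higher on HFD, against 4.82% of all genes. This was Acad9, an acyl-CoA dehydrogenase of the same assembly complex as Ecsit, which rose by 0.67 ± 0.17 (adjusted p = 0.0370). Between the depots on HFD 4 factors were called higher in iWAT of GFP mice, against 5.56% of all genes: Ecsit at 0.79, Acad9 at 0.56, Ndufaf1 at 0.55 and Foxred1 at 0.53. Ecsit was at 0.73 in irisin mice, also called, against 3.54% of all genes called higher.

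The 7 complex I subunits of the mitochondrial genome were all lower on HFD in eWAT of GFP mice (median log2 -0.61), with 2 called, against 11.8% of all genes called lower. mt-Nd6 was at 1326 ± 151 FPKM on HFD and 2683 ± 369.7 FPKM on chow, and fell by 1.01 ± 0.30 (adjusted p = 0.0314), and mt-Nd4l was at 20.7 ± 1.43 and 62.9 ± 21.9 FPKM, and fell by 1.53 ± 0.44 (adjusted p = 0.0268). Both overlap a neighbouring subunit gene, mt-Nd5 on the other strand and mt-Nd4, and nuclear copies of mitochondrial genes are known, so their reads are uncertain. In irisin mice 6 of 7 were lower on HFD (median -0.27), and in iWAT all 7 were higher in irisin than in GFP mice on HFD (median 0.48) and lower on chow (median -0.43), with 0 called by limma in each.

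Ndufab1, the mitochondrial acyl carrier protein, is a complex I subunit whose symbol lies outside the rule, and in eWAT of GFP mice it fell on HFD by 0.63 ± 0.21 (adjusted p = 0.0446). Ndufa4l2, a paralogue of Ndufa4 known to rise in hypoxia, pointed up in the same contrast at 0.93 ± 0.35 (adjusted p = 0.0711). Of the 46 nuclear genes of complexes II to V that were tested 18 were called lower and 2 higher there, against 11.8% of all genes called lower. Their median log2 fold change was -0.47, beside 19 of 36 lower and -0.55 for complex I. In irisin mice the same genes gave 4 lower and 1 higher, with a median of -0.32, beside 4 and -0.40, against 7.93% of all genes called lower. Of all 16274 genes 4310 were called in either direction in GFP mice and 2831 in irisin mice. Among 8 regulators of mitochondrial gene expression limma called 0 in the vector and diet comparisons of either depot. Ppargc1a, the coactivator known to drive mitochondrial biogenesis, was at 0.429 ± 0.0860 FPKM on HFD and 0.352 ± 0.116 FPKM on chow in eWAT of GFP mice, with 0.13 ± 0.21 (adjusted p = 0.697). In iWAT of GFP mice on chow it was at 1.46 ± 0.347 FPKM, higher than in eWAT by 1.2 ± 0.26 (adjusted p = 0.00889), and Ppargc1b by 1.06 ± 0.23.

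**Figure D5:**
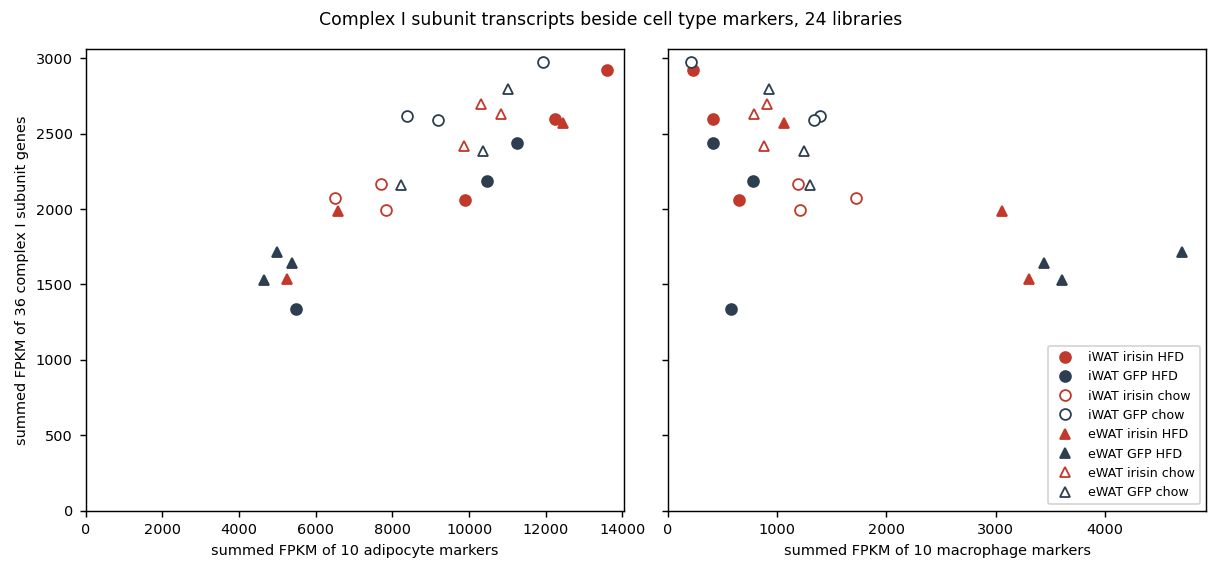
Summed FPKM of the 36 members (vertical axis) against the summed FPKM of 10 adipocyte markers (left) and 10 macrophage markers (right), with 1 point per library, circles for iWAT, triangles for eWAT, filled for HFD, open for chow, red for irisin and dark for GFP. Libraries with more adipocyte marker signal hold more complex I signal, and the eWAT GFP HFD libraries sit at the low end on the left and the high end on the right.

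The genes whose pattern over the 8 group means was most like the mean of the members, among 11508 protein-coding genes outside the rule with a mean of at least 1 FPKM, were Cox4i1, a subunit of complex IV (r = 0.99), mt-Nd4, a complex I subunit of the mitochondrial genome (0.98), Uqcr11 of complex III (0.98), Cox8a of complex IV (0.98) and mt-Nd1 (0.98). These correlations describe 8 group means that share libraries and depth, and are given without a test.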

How the data were processed

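RNA of 24 libraries was measured as FPKM, which the authors computed and deposited in 1 gene table. Per the submitters' processing notes the aligner was HISAT2 2.0.5 and the counter featureCounts 1.5.0-p3, while the genome build and strand setting are not given in the sources used here. FPKM multiplied by gene length gave whole reads for 100% of values (tolerance 0.01), 14.1 M to 19.7 M per library. Another 8 numeric columns were not used. Genes reaching 0.5 FPKM in 3 or more libraries were tested on log2(FPKM + 0.5), which understates changes of low genes, with limma 3.58.1 in R 4.3.3, with 12 libraries per depot or all 24 for comparisons between depots, and Benjamini and Hochberg adjustment over all genes. The fit was tested on simulated data. Interactions test the difference of 2 effects. Members and gene lists were chosen with earlier results of these data known. Named members were, by rule, core subunits, Ndufa4, those of extreme level, the called members of smallest adjusted p in each comparison (6 at most) or else the 2 with the smallest p, and those of the highest and lowest log2 fold change; other called members in eWAT of GFP mice were named by structural group. Voom was run on the recovered reads as an alternative, beside other pseudocounts, filters, scalings, array weights, a replicate block, fits of only the groups compared and fits without single libraries. Whether the replicate numbers pair the libraries is not given in the labels, and the main fits did not use them. The values of 1 member, which counts and medians include, are not reported here.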

Additional observations from a re-analysis of the deposited data

How the results depend on the processing

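In the 3 comparisons with called members their number moved by over 1.5 times in 17 of 18 fits that left out 1 library and in 14 of 33 other fits, each with 1 choice changed. In the 15 comparisons without calls it left 0 in 4 of 126 and 16 of 163 such fits, and a count of 0 that stays at 0 shows no stability. Pseudocounts of 1 or 0.1 and a filter at 1 FPKM moved no count beyond 1.5 times. The share of all genes called in a refit is given only for weights for library quality. Weights for library quality raised most counts, for the members and for all genes (share called in the same direction in brackets): in iWAT to 13 for irisin against GFP on chow (7.19%), 6 for HFD against chow in GFP mice (11%) and 17 in irisin mice (23.3%), and in eWAT to 12 for irisin against GFP on HFD (6.89%), 31 for HFD against chow in GFP mice (16.7%) and 26 in irisin mice (29.6%). Between depots they gave 25 in GFP mice on HFD (15.7%), 9 in irisin mice on chow (9.09%), 15 in irisin mice on HFD (12.7%), and 11 (GFP, 11.7%) and 30 (irisin, 11.6%) for the interactions with diet. The weighted fits gave 1 warning in eWAT and 1 over all libraries, and the cause of the higher counts was not tested. For HFD against chow in eWAT of irisin mice, with 4 reported, the count was 8 with upper quartile scaling, 13 with quantile normalization, 12 with voom, 8 with a replicate block and 0 with only these groups fitted. For HFD against chow in iWAT it was 1 in GFP mice with quantile normalization or voom, and 4 in irisin mice with only these groups fitted. For iWAT against eWAT it was 3 (quantile) and 2 (voom) in GFP mice on HFD, 7 in irisin mice on chow with only these groups fitted, and 6 (quantile), 2 (voom), 0 (only these groups) and 0 (no filter) in irisin mice on HFD. Without the 4 libraries rich in other tissues, an alternative chosen after seeing the data, it was 3 for diet in iWAT of irisin mice, 9 for diet in eWAT of GFP mice, and 3 for depot in GFP and in irisin mice on HFD.

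With each library left out in turn the counts ran from 8 to 22 for diet in eWAT of GFP mice, 0 to 20 in irisin mice, 0 to 2 for diet in iWAT of GFP mice, 0 to 16 and 0 to 13 for depot on HFD in GFP and irisin mice, and 0 to 13 for the depot by diet interaction in irisin mice, and stayed at 0 for the other 12. Some named members changed sign. Ndufa12 turned to -0.15 (weights) and ranged from -0.29 to 0.21 without single libraries for irisin against GFP in iWAT on chow. Ndufa11 turned to 0.16 (weights) and 0.20 (without the 4 libraries), and ranged from -0.20 to 0.20, for diet in iWAT of GFP mice. Ndufa1 turned to 0.020 (weights), range -0.14 to 0.077, for diet in iWAT of irisin mice, and to 0.18 (weights) and 0.030 (without the 4 libraries), range -0.20 to 0.15, for the interaction in eWAT. Ndufb3 turned to -0.057 (upper quartile), -0.071 (quantile), -0.058 (weights) and -0.025 (voom), range -0.25 to 0.24, for diet in eWAT of irisin mice. For depot, Ndufa12 turned to 0.12 without the 4 libraries (range -0.44 to 0.12) in GFP mice on chow. Ndufa6 turned to 0.0061 (upper quartile), 0.016 (quantile), 0.056 (weights) and 0.083 (without the 4 libraries), range -0.15 to 0.12, in GFP mice on HFD. Ndufa2 turned to -0.025 (voom), range -0.20 to 0.30, in irisin mice on HFD. For the depot by vector interaction Ndufa12 turned to -0.18 (weights) and -0.0060 (without the 4 libraries), range -0.24 to 0.39, on chow, and Ndufb3 ranged from -0.56 to 0.023 on HFD, while Ndufb11 ranged from -0.011 to 0.23 for irisin against GFP in eWAT on HFD.

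Same-numbered libraries of different groups deviated together (r over 0.1) in 9 of 18 pairs in iWAT, 3 of 18 in eWAT and 2 of 12 between depots. Differently numbered libraries did so in 10 of 36, 5 of 36 and 6 of 24 pairs. In iWAT the median r was 0.097 for same-numbered pairs and -0.053 for the others. These values do not settle whether the numbers pair the libraries, and the main fits held no block for them. With a replicate block the count for diet in eWAT of GFP mice was 24. Voom moved the median log2 fold change of all genes by -0.16 for diet in iWAT of irisin mice, where the members' median was 0.11 on that scale, by -0.17 for the interaction in iWAT and by -0.12 for the depot by diet interaction in irisin mice. The median SE of a member was 0.22 log2 units for comparisons within iWAT, 0.18 within eWAT and 0.20 between depots, which bounds the differences that 3 libraries a group could show.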

Other observations

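Ndufa12, chosen after its values were seen, departed from the common shift of the other members in single libraries. As a ratio to the summed FPKM of the other 35 members, multiplied by 1000, it was at 13.8 in iWAT irisin chow 2, 13.2 in eWAT GFP chow 1, 13 in iWAT irisin HFD 2, 11.8 in eWAT irisin HFD 2 and 8.82 in eWAT irisin chow 1. In the other 19 libraries it lay between 5.10 and 7.15, with a median of 6.29. The high libraries were of both depots and both diets, and all of them except eWAT GFP chow 1 were of irisin mice. A link to the vector was not tested. The 3 libraries of a group were never all high. The neighbouring gene Nr2c1 lay between 2.81 and 4.71 FPKM in all 24 libraries.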
